A study of Mus musculus with 6 samples.

Results

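The ETS genes examined here are 10 members of the ETS transcription factor family, namely Elk4, Elf1, Elf2, Elf4, Ets1, Ets2, Fli1, Gabpa, Etv6 and Elk3, in chromatin immunoprecipitation with sequencing (ChIP-seq) for Ikaros in mouse natural killer (NK) cells. The genes were chosen by name from the gene column of the authors' peak lists, with the peaks already known, so which of them had a peak is a description and carries no test. Together they account for 12 of 4111 peaks, that is 3 of 685, 5 of 2084 and 4 of 1342 peaks in the lists of wild-type (WT) replicates 1, 2 and 3. The series holds 6 samples, 3 WT and 3 in which Ikzf1, the gene of Ikaros, is deleted through NKp46-driven recombination (Ikzf1 KO). All were splenic NK cells grown in culture with IL-15 at 50 ng/ml and precipitated with an antibody to Ikzf1. Peak lists of the WT libraries were used, and the KO libraries were not analysed here. Mouse strain, age and the number of animals behind a library are not given in the sources used here, and differences between lists may thus be technical. The level that KO cells would give at these sites, which is the background of the antibody, was not measured here. Read counts were not used, the depth is unknown, and the lists carry no expression values against which the labelled cell type could be checked.

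ETS factors share a winged helix-turn-helix domain that binds DNA around a GGAA core. Several act in NK cells: Ets1 is needed for NK cell development, and Elf4, also called MEF, for NK cell development and perforin expression. Ikaros is a zinc finger factor whose own core, TGGGAA, contains the ETS core.

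A peak was named for 5 of the 10 genes in at least 1 list, for 4 in at least 2 lists and for 3 in all lists. Over 21887 protein-coding genes the same counts were 2083 (9.52%), 976 (4.46%) and 439 (2.01%). Since the genes were picked with their peaks in view, nothing is read from that difference. Elk4, Elf1 and Etv6 had a peak in every list, Elk3 in replicates 2 and 3, and Ets2 in replicate 2. Elf2, Elf4, Ets1, Fli1 and Gabpa had none. Each gene with peaks had 1 region, taken as overlapping peaks joined across lists. All 5 regions had their midpoint within 1 kb of an end of the gene, on mm10 coordinates. Of all peaks, 47.2%, 41.5% and 49.6% in replicates 1, 2 and 3 had their midpoint within 1 kb of a listed coding start. That measure is not the same, and nothing is read from the count of 5.

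Sequence was available for the windows from 250 bases before to 50 bases after listed start sites (RefSeq, GRCm38.p6), with 13 windows for 8 of the 10 genes; Ets1 and Fli1 have no entry. The bases before the first listed start are shown for 3 genes, 5′ to 3′ on the plus strand, with capitals on each GGAA core on either strand (TTCC where the core is on the minus strand). Ets2 is shown because its peak covers this stretch almost whole, at chr16:95702157-95702406. Etv6 is shown because the stretch, at chr6:134035450-134035699, lies inside the replicate 2 peak and holds an Ikaros core, TGGGAA, also in capitals. Elk4 is shown because it is the 1 gene of the 8 with the longer ETS consensus CCGGAAGT, also in capitals, at chr1:132007370-132007619.
Ets2: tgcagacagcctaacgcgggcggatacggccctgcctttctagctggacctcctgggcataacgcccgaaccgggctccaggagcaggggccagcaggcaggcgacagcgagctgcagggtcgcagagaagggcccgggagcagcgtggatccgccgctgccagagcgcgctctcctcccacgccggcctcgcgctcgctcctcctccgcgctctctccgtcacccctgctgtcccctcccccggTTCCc
Etv6: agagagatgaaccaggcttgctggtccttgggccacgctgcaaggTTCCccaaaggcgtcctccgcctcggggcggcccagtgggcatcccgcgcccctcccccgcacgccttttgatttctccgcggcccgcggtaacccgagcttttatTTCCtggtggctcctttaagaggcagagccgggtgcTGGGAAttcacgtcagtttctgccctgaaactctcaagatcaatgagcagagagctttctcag
Elk4: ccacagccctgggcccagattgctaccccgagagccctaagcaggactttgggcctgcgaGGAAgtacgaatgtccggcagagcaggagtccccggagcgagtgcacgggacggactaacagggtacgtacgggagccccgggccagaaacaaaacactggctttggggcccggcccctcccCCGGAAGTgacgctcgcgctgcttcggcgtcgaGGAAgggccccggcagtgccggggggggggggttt

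A stretch of 30 bases upstream of the third listed start of Elk4, at chr1:132008264-132008293 on the plus strand and from position -81 to -52, shows 2 ETS cores that lay inside the Elk4 peak of every list. The stretch around the first listed start of Elf4, at chrX:48463117-48463146 on the minus strand, shows an Ikaros core in a gene without a peak, as TTCCCA, with an ETS core next to it.
Elk4, the third start: ttaacttgccggagtggcaGGAAgttGGAA
Elf4, first start: tgacttcactgcTTCCCAGGAAgaggcgcc

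Elk3 and Elk4 encode ternary complex factors, which bind DNA with serum response factor and are phosphorylated by ERK kinases. The Elk4 (ENSMUSG00000026436) region, on chromosome 1, 132007609 to 132008553, had fold enrichments, as the authors gave them, of 3.91, 4.25 and 4.26 in replicates 1, 2 and 3. All 3 values were below the median of their list, which was 5.10, 4.73 and 4.99. As a percentile of fold enrichment within its list, where 100 is the strongest peak, Elk4 stood at 8.32, 30.9 and 24.2 (mean 21.1 ± 11.6 SD, n = 3). The lists differ in length, at 685, 2084 and 1342 peaks, so percentiles from different lists are not on the same scale. Its −log10 q values were 1.43, 3.26 and 2.77, so this region was close to the lower limit of the replicate 1 list, whose lowest value was 1.15. The authors also named the noncoding gene Gm29103 for each of these peaks.

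The Elk3 (ENSMUSG00000008398) region, on chromosome 10, 93310305 to 93311014, was enriched 4.10-fold in replicate 2 and 4.41-fold in replicate 3. These were percentiles of 25.3 and 28.7, so both stood in the lower part of their lists. In replicate 1 the nearest peak to Elk3 was 86.5 kb away and was named for Cdk17.

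Elf1, a factor of lymphoid cells, and Etv6, a transcriptional repressor also known as TEL, also had a peak in every list. Both were above Elk4 in percentile in replicates 1 and 3, while in replicate 2 Elf1 was above it and Etv6 was not. For Elf1 (ENSMUSG00000036461), on chromosome 14, 79481410 to 79481949, fold enrichments were 4.95, 5.36 and 4.96 in replicates 1, 2 and 3. Percentiles were 44.4, 68.4 and 49.3 (mean 54.0 ± 12.7 SD, n = 3), below the middle of the list in replicates 1 and 3 and above it in replicate 2. With each list reduced to its 685 peaks of highest −log10 q, the mean for Elf1 was 30.8, over replicates 1 and 2. The higher standing in replicate 2 thus holds for the full lists only. The authors named Wbp4, which encodes a splicing-associated protein, for the same peaks. Wbp4 runs in the opposite direction from Elf1, with its listed start 74 bp from the first listed start of Elf1. By RefSeq coordinates the peaks lay within Elf1 and outside Wbp4, which spans 79459937 to 79481268. Since the authors named both genes, these peaks are not given to either gene alone here.

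For Etv6 (ENSMUSG00000030199), on chromosome 6, 134035141 to 134036121, fold enrichments were 6.31, 4.21 and 6.09 in replicates 1, 2 and 3. Percentiles were 81.6, 29.2 and 76.0 (mean 62.3 ± 28.8 SD, n = 3). Replicates 1 and 3 thus placed Etv6 in the upper part of their lists and replicate 2 placed it in the lower part. The replicate 2 peak was 981 bp wide, against 227 bp in replicate 1 and 289 bp in replicate 3, and it contained both of them. The part of width in the lower value was not tested.

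Ets2, an ERK-responsive factor closely related to Ets1, had 1 peak (ENSMUSG00000022895), in replicate 2, on chromosome 16, 95702165 to 95702438. Its fold enrichment was 5.34, a percentile of 67.8, and its −log10 q was 6.43. The nearest peaks of replicates 1 and 3 were 1331 and 1133 kb from the gene. Within the replicate 2 list Ets2 stood beside Elf1, at 68.4, and above Elk4, Etv6 and Elk3, at 30.9, 29.2 and 25.3, yet it was found in no other list. Among the 685 peaks of highest −log10 q in that list its percentile was 16.5.

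**Figure D1:**
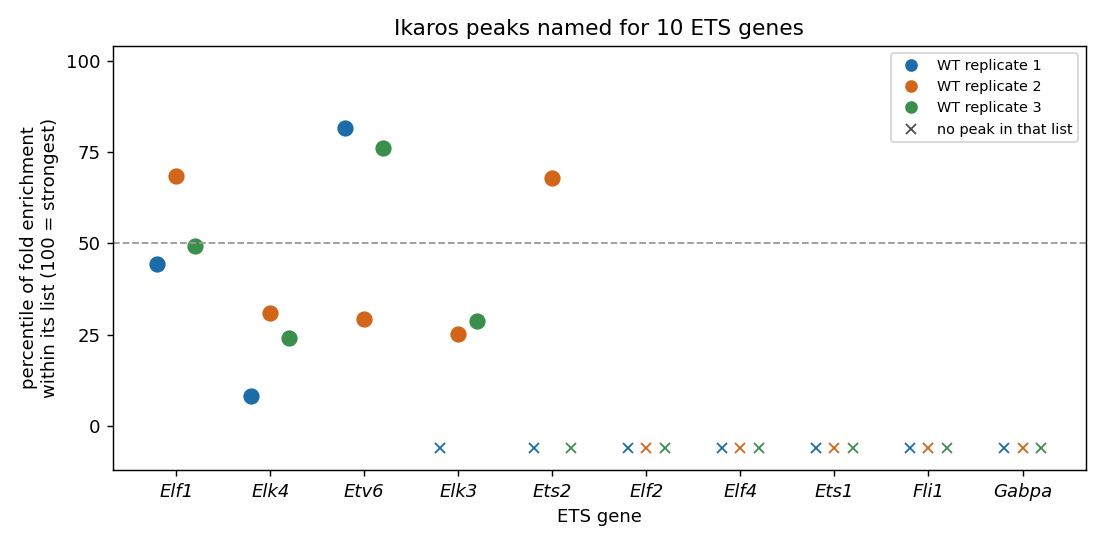
Percentile of fold enrichment within its own list (vertical axis, 100 being the strongest peak) for each of the 10 ETS genes; points are single peaks of WT replicates 1, 2 and 3, crosses mark lists without a peak, and the dashed line marks the middle of a list. Elk4 and Elk3 lie between 8.32 and 30.9, and Etv6 has 81.6 and 76.0 in replicates 1 and 3 but 29.2 in replicate 2.

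The 12 peaks had percentiles from 8.32 to 81.6 with a median of 37.6, 4 being above and 8 below the median fold enrichment of their list. Their −log10 q values ran from 1.43 to 7.23. With peaks of −log10 q of 5 or more, Elf1 (replicate 2), Ets2 (replicate 2) and Etv6 (replicates 1 and 3) were left. Of all 21887 protein-coding genes, 823 then had a peak in at least 1 list. At 10 or more none of the 10 genes had a peak, and 261 of the 21887 had one in at least 1 list. That share is small, so a count of 0 among 10 genes does not set them apart. With each list reduced to its 685 peaks of highest −log10 q, the length of the shortest, 4 genes had a peak, 2 of them in 2 lists and 0 in all lists. The 2 were Elf1 (replicates 1 and 2) and Etv6 (replicates 1 and 3), while Elk3 was lost. Of the 21887 protein-coding genes, 279 were then in all lists, which is a small share too.

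The wider peaks of these genes mostly had the lower fold enrichments. The 7 peaks of 454 to 981 bp had percentiles of 8.32 to 49.3, and the 5 peaks of 227 to 333 bp had percentiles of 44.4 to 81.6. The wide ones were all peaks of Elk4 and Elk3, the replicate 2 peak of Etv6 and the replicate 3 peak of Elf1. The split at 450 bp was chosen after the values were seen. Across all peaks the relation was weak, with Spearman's rho between width and fold enrichment of -0.03, -0.02 and -0.04 in replicates 1, 2 and 3, over peaks that share a library. Among the peaks above the upper quartile of width in each list, from 406, 450.25 and 430 bp, the median percentile was 37.5, 33.0 and 32.6.

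**Figure D2:**
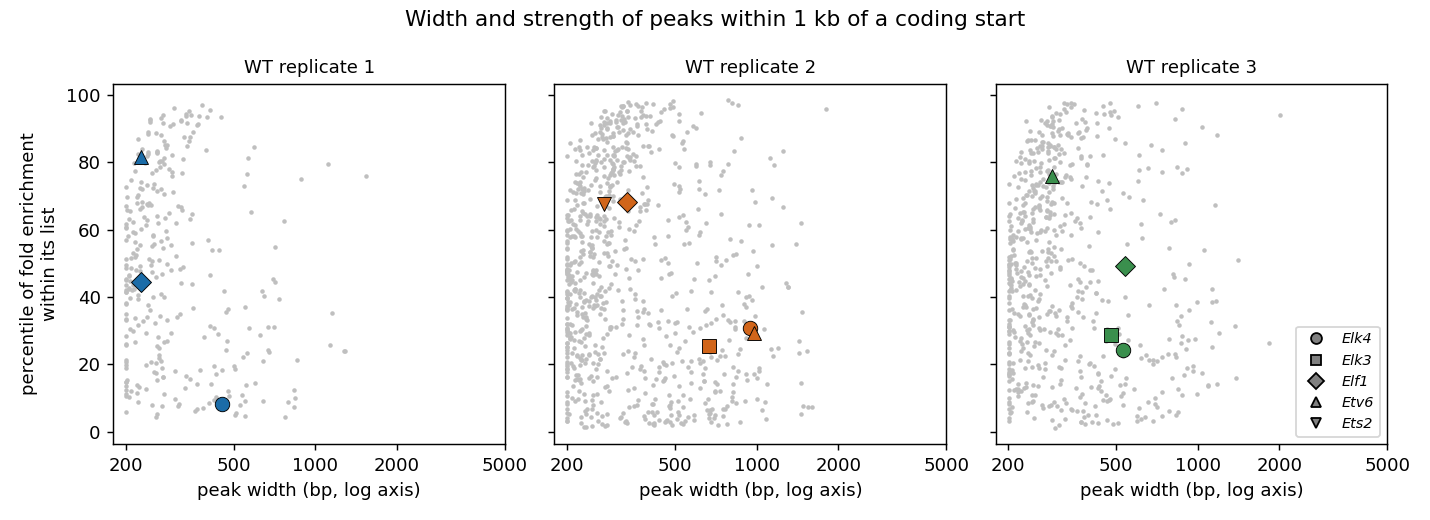
Width of each peak within 1 kb of a coding start (horizontal, bp, log axis) against its percentile of fold enrichment (vertical), 1 panel for each WT replicate; grey points are all such peaks and coloured symbols those of the 5 ETS genes. The peaks of Elk4 and Elk3 and the 981 bp peak of Etv6 sit low, at 8.32 to 30.9.

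At 4 of the 5 genes the bases shared by all peaks of the region lay on the gene side of the first listed start. They ran from 309 to 752 bp after that start for Elk4, 189 to 622 for Elk3, 327 to 540 for Elf1 and 42 to 268 for Etv6. The wide replicate 2 peak of Etv6 was the exception among single peaks of these 4 genes, with its midpoint at -69 bp. At Ets2 the peak ran from -242 to 31 bp. Elk4 has 2 further listed starts inside its region, and relative to the nearest of its starts the midpoints were at 53.5, -21 and 5 bp in replicates 1, 2 and 3. Exons, introns and UTRs were not assigned.

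Relative to the nearest listed start of any protein-coding gene, 6 of the 12 midpoints were downstream and 6 upstream. The Elf1 peaks counted as upstream, at -353, -419 and -411.5 bp from the start of Wbp4 in replicates 1, 2 and 3. Of all peaks within 1 kb of such a start, 41.8%, 40.5% and 42.6% in replicates 1, 2 and 3 were downstream (95% Clopper-Pearson intervals, which cover counting error over peaks only, 36.4 to 47.4, 37.2 to 43.9 and 38.8 to 46.4). The median midpoint of those peaks was at -28.5, -32.25 and -21 bp. The Elk3 midpoints, at 521.5 and 383.5 bp, were beyond the upper quartile of these positions, at 94.75 and 107 bp in replicates 2 and 3. So were the Etv6 midpoints of replicates 1 and 3, at 155 and 161 bp against 107 bp in both. The Elf1 midpoints were before the lower quartile, at -141, -161.25 and -132.5 bp in replicates 1, 2 and 3. Those of Elk4, of Ets2 and of Etv6 in replicate 2 lay between the quartiles.

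**Figure D3:**
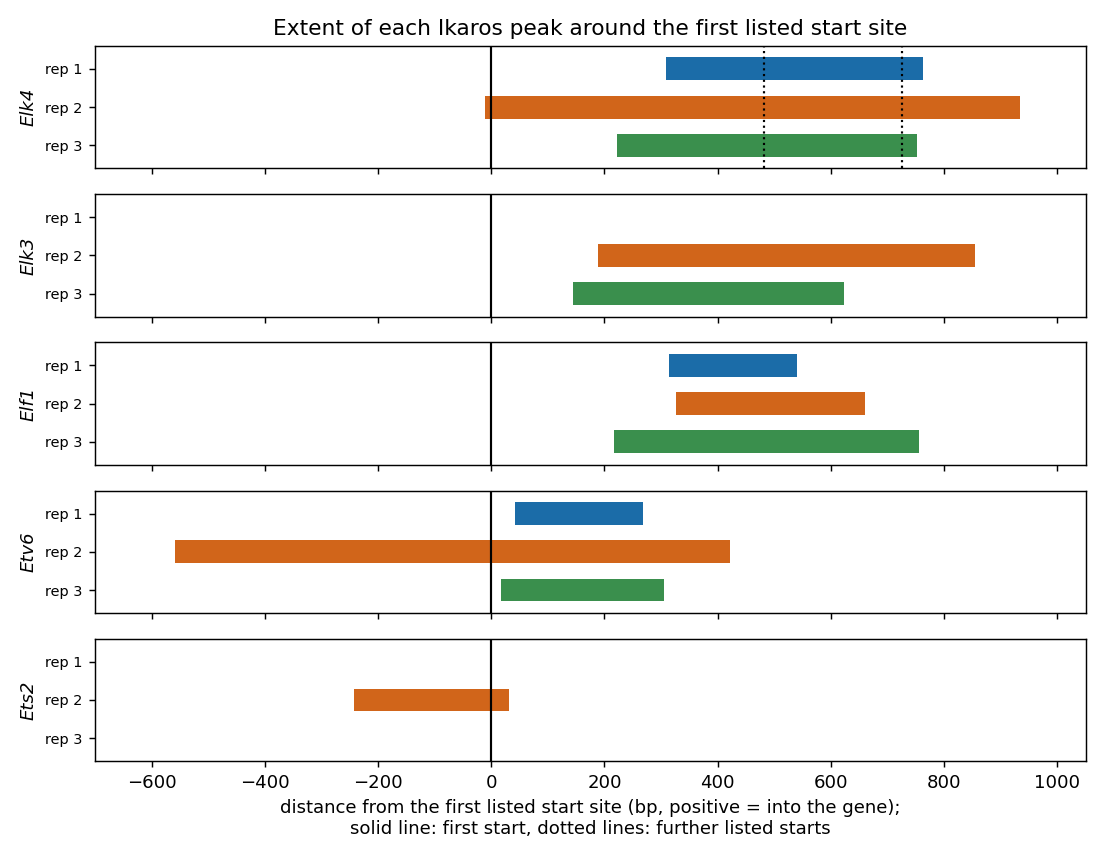
Extent of each peak around the first listed start of its gene (horizontal, bp, positive into the gene), with 1 row for each WT replicate; the solid line is the first listed start and dotted lines are further listed starts. All peaks of Elk3 and Elf1 begin after the start, and the peak of Ets2 lies mostly before it.

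**Figure D4:**
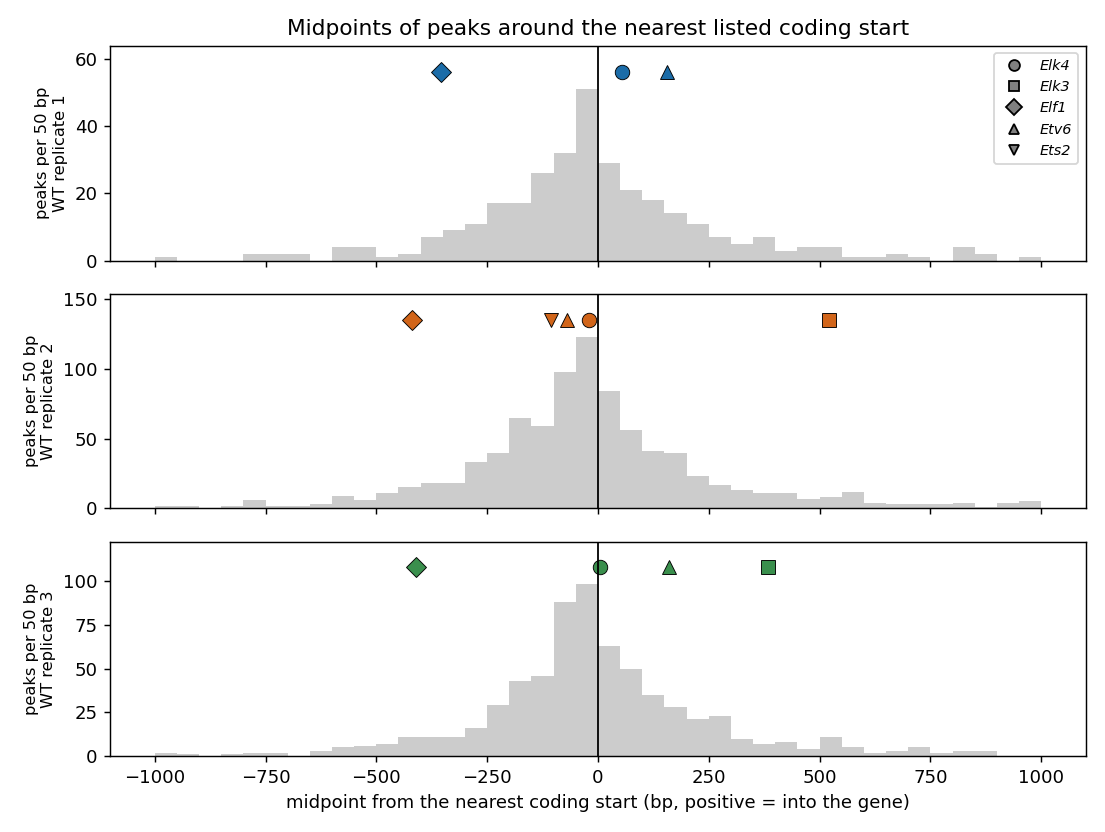
Number of peak midpoints in 50 bp steps around the nearest listed coding start (horizontal, bp, positive into the gene) for all peaks within 1 kb, with symbols for the peaks of the 5 ETS genes, set at an arbitrary height. The Elf1 symbols, at -353 to -419 bp, are placed by the start of Wbp4.

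Core motifs in the start windows were described for both strands. The ETS core GGAA was in the windows of all 8 genes, and in 96.0% of 32851 windows of the same length, so it does not set these genes apart. Of its 46 matches in the 13 windows, 16 lay inside a peak of at least 1 list and 6 inside a peak of every list, all 6 at Elk4. Windows of neighbouring starts overlap, so a match can count for more than 1 window. The longer ETS consensus CCGGAAGT, which contains GGAA, was in 1 window, that of the first Elk4 start at position -68, and in 3.89% of all windows. This match ended before the Elk4 peaks began in every list.

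The Ikaros core TGGGAA, which also contains GGAA, was in the first windows of Etv6 and Elf4 and in 25.6% of all windows. At Etv6 it lay at position -63, inside the peak of replicate 2 and before those of replicates 1 and 3. No match in the other windows says only that these letters are not there: the Elf1 and Elk3 peaks lie outside all listed windows of their genes. Over the 260 windows overlapped by a peak in all lists, 25.8% held TGGGAA and 11.9% held CCGGAAGT. Median G+C content was 52.7% over all windows and 66.3% over those 260. The member windows overlapped by a peak ranged from 57.3% (Etv6) to 74.3% (the second Elk4 start). The member windows without a peak ranged from 44.7% (the second Elf1 start) to 78.7% (the first Elf2 start), so the ranges overlap.

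The 5 genes without a peak had their nearest one 99.5 to 2519 kb away. For the other ETS family genes without a peak, the range was 0.674 kb (Elf3) to 1170 kb (Etv5). Elf2 and Elf4 belong to the subfamily of Elf1, Gabpa encodes the DNA-binding subunit of GABP, and Fli1, a regulator of blood cell formation, neighbours Ets1 on chromosome 9. The genes lie on chromosome 3, 51252720 to 51340683 (Elf2), on chromosome X, 48411049 to 48463132 (Elf4), on chromosome 16, 84834891 to 84863783 (Gabpa), and on chromosome 9, 32636241 to 32757820 (Ets1) and 32422204 to 32543432 (Fli1). The nearest peak of any list was 99.5 kb from Gabpa (named for Mrpl39), 376 kb from Elf4 (Apln), 764 kb from Elf2 (Maml3), 2304 kb from Ets1 and 2519 kb from Fli1 (St3gal4 for both). In the lists of replicates 1, 2 and 3, 41, 50 and 42 of the authors' running peak numbers were absent, so the lists as used here are not complete. All of these gaps fell between the last peak of a chromosome and the first of the next listed one, and none fell between peaks of the same chromosome. Depth being unknown, a weak site that was not listed cannot be told from an unbound one.

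The remaining 17 genes of the family were also examined. Of these, 2 had a peak in at least 1 list, 1 in at least 2 and 0 in all lists. The first of these shares, 11.8%, was near the 9.52% of all protein-coding genes. Erf, which encodes an ERK-regulated ETS repressor (ENSMUSG00000040857), was enriched 5.60-fold in replicate 2 and 5.81-fold in replicate 3, at percentiles of 74.2 and 70.2. Its peaks, on chromosome 7, 25250624 to 25250837 and 25250681 to 25250914, lay across the listed start, with midpoints at 27.5 and -39.5 bp. Erg, a close relative of Fli1, had 1 peak, in replicate 2, at a percentile of 4.65 and a −log10 q of 1.12. The PEA3 genes (Etv1, Etv4 and Etv5), the SPI genes of myeloid and B cells (Spi1, Spib and Spic) and the epithelial genes (Elf3, Elf5 and Ehf) had none by the authors' gene column. Neither had Elk1, Fev, Etv3, Etv3l, Etv2 and Spdef. Since only 9.52% of all protein-coding genes had a peak in at least 1 list, nothing is read from these absences. A replicate 2 peak 0.674 kb from Elf3 was named for Gm26642; it was singled out after its position was seen.

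**Figure D5:**
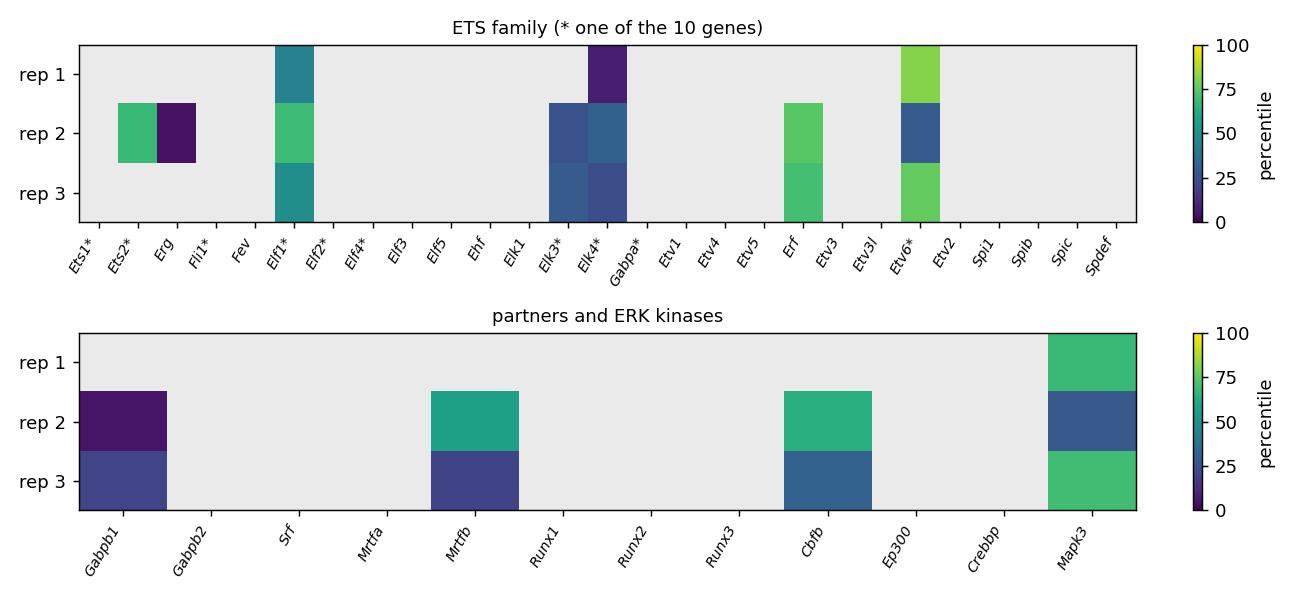
Percentile of fold enrichment (colour scale) of the strongest peak named for each of 27 ETS family genes (top) and 12 partner and kinase genes (bottom) in each WT replicate; grey means no peak and asterisks mark the 10 genes. Of the family, 3 genes have a peak in every list, Elf1, Elk4 and Etv6, and of the partners Mapk3 does.

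Among 12 genes for partners, coactivators and a kinase of ETS factors, 4 had a peak, each in at least 2 lists (33.3%, against 9.52% of all protein-coding genes in at least 1 list and 4.46% in at least 2). The list was drawn up with results of these data known, and nothing is read from that difference. Mapk3, which encodes the ERK1 kinase that phosphorylates ternary complex factors (ENSMUSG00000063065), was enriched 5.63-fold in replicate 1, 4.17-fold in replicate 2 and 5.78-fold in replicate 3. Its percentiles were 67.6, 27.8 and 69.4, so Mapk3, like Etv6, stood below the middle of the replicate 2 list and above it in the others. Gabpb1, the partner subunit of GABP (ENSMUSG00000027361), had percentiles of 5.81 and 20.9 in replicates 2 and 3, while Gabpa had no peak. Cbfb, which encodes the shared partner of RUNX factors (ENSMUSG00000031885), had 63.2 and 31.4 in those replicates. Mrtfb, a coactivator of serum response factor that the authors list as Mkl2 (ENSMUSG00000009569), had 56.8 and 20.6. Srf, Mrtfa, Runx1, Runx2, Runx3, Gabpb2, Ep300 and Crebbp had none.

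Among 441 protein-coding genes, by the authors' names, with a region in all lists, those nearest in mean percentile to Elk4 were P4hb, Zfand5 and Klf13, at 21.0, 20.8 and 20.5. Those nearest to Elf1, apart from Wbp4, which shares the region, were Fam227b and Iqgap2, at 54.0 each. Those nearest to Etv6 were 9430015G10Rik, Cnbd1 and Gtdc1, at 62.2, 62.4 and 62.4. Likeness here is the difference of mean percentiles over 3 lists and nothing more. The authors marked 122 named genes as transcription factors, of which 27 were in all lists, Elk4, Elf1 and Etv6 among them.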

How the data were processed

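Ikaros ChIP-seq peak lists of 3 WT libraries were used. The submitters' processing notes name MACS2, Subread, SAMtools, Picard, edgeR 3.20.0 and the build mm10 without their roles; the control library and the q threshold are not given in the sources used here. Fold enrichment, a linear ratio, and the −log10 of p and q stand beside every peak, per the file headers. What that ratio was taken over is not given in the sources used here. The deposited score was 10 times the −log10 q, cut to a whole number, in 100% of rows.

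The genes, lists and measures were chosen with earlier results of these data known. Rows were reduced to 1 per peak, peaks sharing at least 1 base were joined, and percentiles were ranks of fold enrichment within a list. Of 2145 protein-coding names, 2083 matched RefSeq symbols or synonyms (97.1%). Start sites came from RefSeq promoter windows, listed for 17492 of 21887 coding genes. Every one of the 10 genes was named, as was each gene with a peak from the family and partner lists, and up to 3 genes most like each gene in all lists. The partner list was first drawn up with 1 more gene, which is not reported here. Joining recovered 200 of 200 regions in simulated lists. There the peaks of a region always overlapped and regions lay far apart, so this checks the code only. The scripts ran under Python 3.11.15 with pandas 2.3.3, NumPy 2.4.6, SciPy 1.17.1 and, for plots, matplotlib 3.10.9. Alternatives changed the q threshold, list length, replicates, overlap rule, gene assignment, measure of strength and window.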

Additional observations from a re-analysis of the deposited data

How the results depend on the processing

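No paired analysis was possible because peak lists of 1 group, WT, were used and nothing was compared between groups. Stricter thresholds and shorter lists leave fewer peaks by construction; other causes were not tested. Depth is unknown.

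Counts below are for at least 1, at least 2 and all lists. Those of protein-coding genes are out of 21887. With peaks under a −log10 q of 5 left out, the 10 genes and their regions each fell to 3, 1 and 0, the 27 family genes to 4, 2 and 0 and protein-coding genes to 823, 407 and 176; regions near a gene end numbered 3. At 10 or more, the 10 genes, their regions and the family were at 0, and protein-coding genes at 261, 134 and 61. With equal list lengths, the 10 genes and their regions were at 2 and 0 for at least 2 and all lists, the family at 3 and 0, and protein-coding genes at 1005, 514 and 279. With RefSeq gene assignment the 10 genes were at 5, 4 and 3, the family at 8, 5 and 3 and protein-coding genes at 2241, 1054 and 475. With both other overlap rules the regions of the 10 genes were at 5, 4 and 3.

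Without 1 replicate, the 10 genes in at least 1 list ranged from 4 to 5 and in 2 lists from 3 to 4. The family in 2 lists ranged from 3 to 5 (3 without replicate 2 or replicate 3), protein-coding genes in at least 1 list from 1324 to 2032 and in 2 from 473 to 875, the lowest of both without replicate 2. Regions near a gene end numbered 3 within 0.5 kb, 5 within 5 kb and 5 by listed start sites, the last chosen after seeing the data.

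Mean percentiles with −log10 p were 21.6 for Elk3 and 75.1 for Ets2. With equal list lengths they were 8.32 for Elk4 (1 list left), 30.8 for Elf1 (2 lists) and 16.5 for Ets2, while Elk3 had no peak left. Those of Etv6 moved by less than the spread between lists.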

Other observations

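The items here were picked after their values were seen. Elk3 lies between genes with peaks of their own. Lta4h, which encodes an enzyme of leukotriene synthesis, had a peak 157 kb from Elk3 at percentiles of 92.0, 98.1 and 97.0 in replicates 1, 2 and 3, all above the Elk3 values. Cdk17, a cyclin-dependent kinase gene, had a peak 86.5, 85.1 and 86.4 kb away in replicates 1, 2 and 3, at percentiles of 38.8, 28.5 and 12.4. In replicate 2, 2 further Cdk17 peaks lay 80.5 and 21.4 kb from Elk3, at percentiles of 16.5 and 69.0. A replicate 2 peak 0.111 kb from Runx3, a RUNX factor of cytotoxic lymphocytes, was named by the authors for the noncoding gene Gm16225, so Runx3 counted as having none.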
